A study of Mus musculus with 113 samples.

Results

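The mitochondrial ribosome is the machine that translates the few proteins encoded by mitochondrial DNA, all of which are subunits of the respiratory chain and ATP synthase. Its RNA comes from the mitochondrial genome, whereas its proteins are made in the cytosol from nuclear genes and imported. Some of these proteins have counterparts in the bacterial ribosome and others were added in the mitochondrial lineage, and subunits named Mrpl and Mrps belong in general to the large and the small subunit.

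The 76 genes described here are the rows of the expression tables whose symbol starts with Mrpl or Mrps and a digit. The same 76 symbols were present in all 4 tables, among 13541 genes for the SFEB populations, 13738 for the adherent populations, 23107 for E14 cells and 11449 for single cells. By their accepted roles, 30 are large-subunit proteins with a bacterial counterpart, 19 are large-subunit proteins counted as specific to mitochondria by their place in the ribosome, 17 are small-subunit proteins with a bacterial counterpart or its paralog and 9 are small-subunit proteins specific to mitochondria. Mrps30 and Mrps18a sit in the large subunit in spite of their names and are among the 19, although Mrps18a itself is a paralog of a bacterial small-subunit protein. Its paralog Mrps18b was counted among the 17 by descent, although its place in the small subunit is specific to mitochondria, so these paralogs were not classed by the same rule. Mrps36 is placed apart, because its product (Kgd4) is now known as a component of the 2-oxoglutarate dehydrogenase complex.

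R1 mouse embryonic stem cells were followed through neural differentiation by RNA-seq in SFEB culture, in which floating embryoid body-like aggregates form without serum, and in adherent monoculture in N2B27 medium. Of the 22 SFEB populations, 14 belong to a first series (0 to 142 h) and 8 to a parallel series (0 to 216 h), and 15 adherent populations cover 0 to 216 h. Each population sample is 1 library at 1 time, so samples were grouped by time into windows of 0-9 h, 20-60 h, 68-106 h and 125-216 h, which hold 6, 6, 6 and 4 SFEB samples and 3, 4, 4 and 4 adherent samples. The SFEB aggregates formed in GKSR medium. On day 6 the cells of both cultures were replated on coated dishes, those of SFEB culture after dissociation and in GMEM-N2 medium, so replating and time cannot be told apart in the 216 h samples. A further 64 single cells come from SFEB culture, 8 at each of 8 times. In E14 embryonic stem cells, wild type (WT) was compared with a knockout of Fyn, a Src-family kinase, at days 0 and 4 of differentiation with 3 libraries a group, and the Fyn KO cells are 1 sorted clone with a deletion in Fyn, so the knockout and its clone cannot be told apart.

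The labelled course of differentiation was visible in marker genes. The summed level of naive pluripotency markers fell from a median of 823.7 FPKM (fragments scaled by transcript length and library size) at 0-9 h to 59.8 at 125-216 h in SFEB culture, while neural progenitor markers went from 33.6 to 567.3 FPKM. Fibroblast markers were also present early: 10 of 10 listed genes were measured, with sums of 392.9 to 1189 FPKM at 0-9 h against 53.9 to 124.6 at 20-60 h and 29.8 to 141.4 at 125-216 h. In adherent culture these sums were 468.0 to 840.5, 88.6 to 171.1 and 66.3 to 422.1 FPKM. In E14 cells at day 0 they were 2.231 to 3.273 FPKM in WT and 2.775 to 6.381 in KO. The paper states that the stem cells had 1 passage without feeders, meant to remove feeder cells. Whether feeder cells remained in the early samples was not tested. In bulk samples a smaller share of cells of a type and less RNA per cell cannot be told apart, and the part of the fibroblast signal in comparisons with 0-9 h was not tested. The tables hold no read counts, so the depth of each sample is not known from them. The study states only a minimum number of reads, for the single cells and the parallel series. In the E14 cells Fyn was at 2.74 to 4.00 FPKM in WT and 0.598 to 1.10 in KO at day 0, and at 4.54 to 9.43 and 1.13 to 1.58 at day 4.

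All 76 genes were expressed in every culture, and all passed the filter of 1 FPKM in 3 samples in the 3 bulk tables. Median levels over samples spanned 8.22 to 127.6 FPKM in SFEB culture, with a middle value of 40.5, and 9.02 to 152.6 FPKM in adherent culture. Mrpl41, a mitochondria-specific protein of the large subunit, was lowest and Mrpl19 next in the SFEB, adherent and E14 tables. Mrpl12, the stalk protein that helps bring translation factors to the ribosome, was at a median of 125.9 FPKM in SFEB culture. Over the time course the highest SFEB sample exceeded the lowest by a median of 2.13-fold across the genes. This ratio ran from 1.24-fold for Mrps15 to 4.35-fold for Mrps18b. Mrps18b also had the widest range in adherent culture, at 4.07-fold.

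The sum over the 76 genes was lowest at the end of the course. In SFEB culture it was 3623 ± 605 FPKM (SD, n = 6) at 0-9 h, 3743 ± 169 (n = 6) at 20-60 h, 3436 ± 158 (n = 6) at 68-106 h and 2922 ± 221 (n = 4) at 125-216 h. In adherent culture it was 4146 ± 159 (n = 3), 4099 ± 555 (n = 4), 3346 ± 153 (n = 4) and 3233 ± 156 (n = 4) in the same order. The adherent samples at 68-106 h (3179 to 3488 FPKM) and 125-216 h (3005 to 3359) overlapped. Those of SFEB culture did not (3258 to 3676 and 2598 to 3076 FPKM). The 2 h library of the first SFEB series stood above all other SFEB samples at 4732 FPKM, while the remaining 0-9 h samples lay between 3001 and 3701. The 216 h samples had the lowest sums in both cultures, 2598 FPKM in SFEB and 3005 FPKM in adherent culture.

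**Figure D1:**
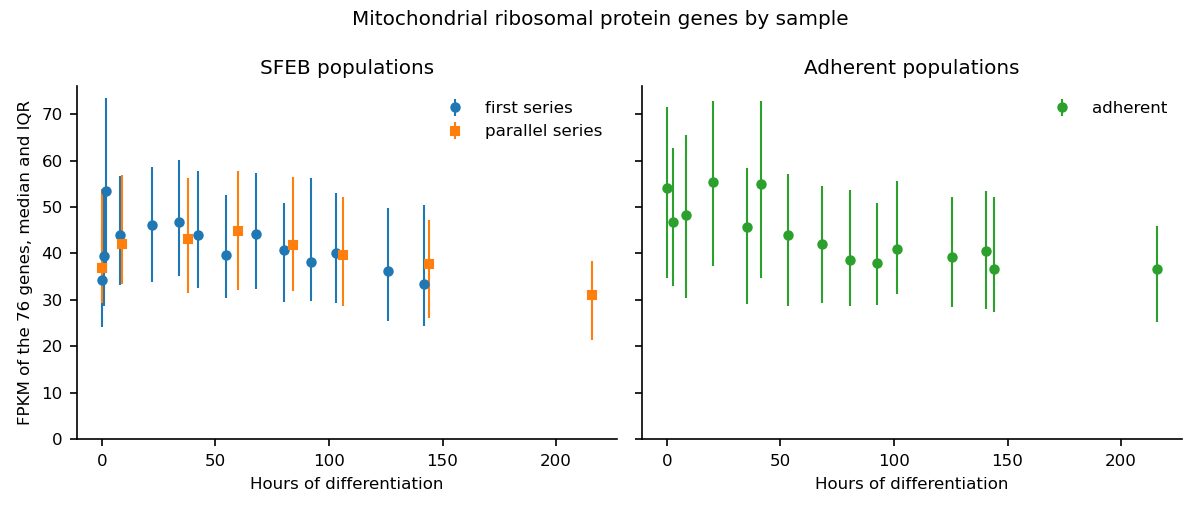
Level of the 76 genes in each population sample against hours of differentiation; points are medians over the genes in FPKM and bars span the interquartile range, with the first (circles) and parallel (squares) SFEB series on the left and adherent culture on the right. The medians end at 30.9 FPKM in SFEB and 36.5 FPKM in adherent culture at 216 h, the lowest of the SFEB samples and of the adherent samples.

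Between 125-216 h and 0-9 h in SFEB culture, 40 of the 76 genes fell and 4 rose (limma on log2(FPKM + 1), Benjamini-Hochberg adjusted p under 0.05), which is 52.6% lower and 5.26% higher. Over all 13363 genes tested 29.5% were lower and 37% were higher. The median difference of the 76 genes was -0.32 on the log2 scale, against 0.07 for all genes tested. Of the large-subunit genes 26 of 49 fell and of the small-subunit genes 14 of 26, with medians of -0.32 and -0.39. Cytosolic ribosomal protein genes had a median of -0.21 with 24 of 74 lower and 0 higher, and nuclear subunits of oxidative phosphorylation had a median of -0.14 with 27 of 80 lower and 2 higher.

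In adherent culture, 39 of the 76 genes fell and 2 rose between the same windows, or 51.3% and 2.63%, beside 23.2% lower and 34.5% higher over all 12879 genes tested. Their median difference was -0.38, with 0.13 for all genes tested, or -0.51 relative to all genes. With quantile normalization the medians were -0.33 and -0.03, or -0.30 relative to all genes, and 5 genes rose. Without the 0 h, 2.5 h or 216 h sample 1 gene rose, and without the 8.5 h or 144 h sample 0 rose. Large-subunit genes fell in 24 of 49 cases and small-subunit genes in 15 of 26. In this culture 7 of 74 cytosolic ribosomal protein genes fell and 2 rose, with a median of -0.06, and 29 of 79 oxidative phosphorylation subunits fell and 3 rose, with a median of -0.22. The samples of a window differ in time and come from no stated separate cultures, so p-values measure the spread between such samples.

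Most calls lay between 20-60 h and 125-216 h. From 0-9 h to 20-60 h in SFEB culture 13 of the 76 genes rose (17.1%) and 1 fell (1.32%), beside 16.6% higher and 21.2% lower over all genes, so the share that rose was near that of all genes. Without the 0 h sample of the first series 8 rose. With quantile normalization 3 fell, and the median of the 76 genes relative to that of all genes went from 0.06 to -0.05. In adherent culture limma called 0 genes in either direction, beside 1.77% higher and 3.6% lower over all genes at the same adjusted threshold. Without the 20.5 h sample 3 were called lower. At an unadjusted p under 0.05 there were 6 of the 76 genes, and no share of all genes at that threshold is given. From 20-60 h to 125-216 h, 45 genes fell and 4 rose in SFEB culture (27.3% and 38.7% of all genes were lower and higher), and 38 fell and 3 rose in adherent culture (21.5% and 37.5%). Without the 20.5 h sample 7 rose in this adherent comparison, and without the 53.5 h sample 1 rose. In the comparison with 20-60 h the fibroblast marker sums of the groups overlapped in both cultures (53.9 to 124.6 and 29.8 to 141.4 FPKM in SFEB culture). Quantile normalization moved the median of all genes from 0.18 to -0.03 in adherent culture; relative to it, the median of the 76 genes was -0.50 without and -0.28 with that scaling.

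**Figure D2:**
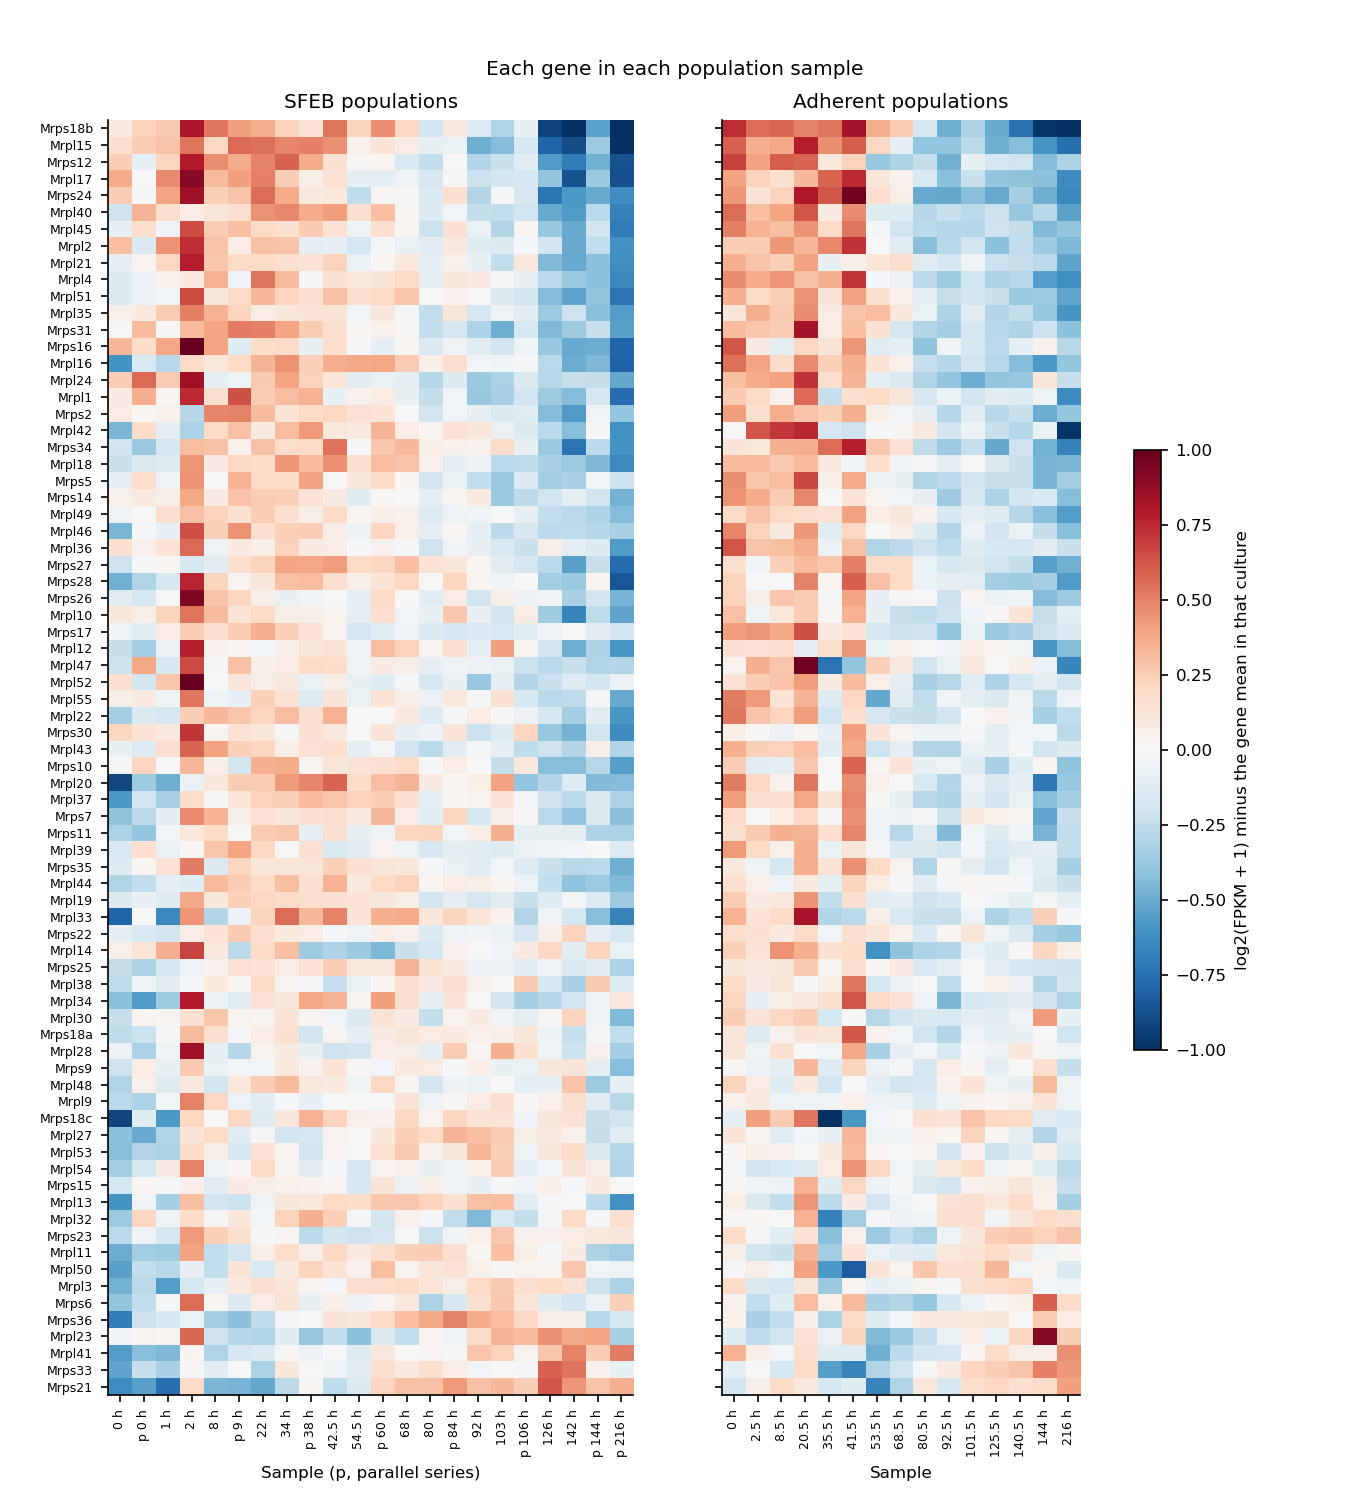
Each of the 76 genes (lines) in each population sample (columns, in order of time), as log2(FPKM + 1) minus the mean of the gene in that culture; red is above and blue below the mean, and genes are ordered by the summed 125-216 h minus 0-9 h difference of both cultures. Most of the upper lines are red in early and blue in late samples of both cultures, many SFEB lines are darkest red at 2 h, and Mrps21 and Mrpl41 at the foot are red in the 4 late SFEB samples and blue in the early ones other than 2 h.

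The window means were ordered as follows. In SFEB culture 27 genes had their highest window mean at 0-9 h, 29 at 20-60 h, 14 at 68-106 h and 6 at 125-216 h, and 55 had their lowest mean at 125-216 h. In adherent culture 36 were highest at 0-9 h and 44 lowest at 125-216 h. All 125-216 h samples lay below all 0-9 h samples for 25 genes in SFEB culture (32.9%, beside 19.1% of all genes) and for 43 in adherent culture (56.6%, beside 24.2%). This held in both cultures for 19 genes (25%), beside 14% of the 12706 genes tested in both.

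The SFEB decrease was present in each series taken alone. In the first series (126 and 142 h against 0, 1, 2 and 8 h) the median difference of the 76 genes was -0.27, with 0.08 for all genes, and in the parallel series (144 and 216 h against 0 and 9 h) it was -0.32, with 0.08 for all genes. The 40 genes called lower were below 0 in both series and the 4 called higher were above 0, signs that are a description only, since these genes were chosen on both series together. From 20-60 h to 125-216 h, a comparison that shares the late samples, the 40 genes were below 0 in both series. Of the 4 genes called higher against 0-9 h, 4 were then above 0 in the first series and 2 in the parallel series, where Mrps33 was at -0.09 and Mrpl41 at 0.36.

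Mrps18b fell most in both cultures. It is one of 3 paralogs of a single bacterial protein, of which Mrps18b and Mrps18c sit in the small subunit and Mrps18a in the large one. It lies on chromosome 17 (36047324 to 36053334, NCBIM37, minus strand). In SFEB culture its level was 65.7 to 109.4 FPKM at 0-9 h (median 78.2), 68.3 to 89.5 at 20-60 h (median 76.02) and 49.8 to 71.2 at 68-106 h (median 57.3). The late samples were at 31.9 FPKM (126 h), 25.1 (142 h), 42.3 (144 h) and 26.4 (216 h), all below every earlier sample. The difference from 0-9 h was -1.37 ± 0.15 (SE, limma, adjusted p = 6.57e-08).

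In adherent culture Mrps18b was at 114.7, 101.1 and 102.5 FPKM at 0, 2.5 and 8.5 h and at 96.9, 99.7, 122.8 and 88.5 between 20.5 and 53.5 h. It was then at 81.7, 60.5, 48.6 and 55.0 FPKM between 68.5 and 101.5 h and at 48.1, 40.4, 34.1 and 30.1 between 125.5 and 216 h. These last samples lay below all others, and the difference from 0-9 h was -1.47 ± 0.18 (limma, adjusted p = 6.84e-06). The paralogs did not pass the test between these windows. Mrps18a had a difference of -0.12 ± 0.10 in SFEB culture and -0.10 ± 0.13 in adherent culture, and Mrps18c had 0.15 ± 0.17 and -0.16 ± 0.29 (limma, adjusted p = 0.28, 0.52, 0.44 and 0.66). From 20-60 h to 125-216 h in adherent culture Mrps18a was called lower (-0.32 ± 0.12, adjusted p = 0.035, limma), a call lost with quantile normalization and without the 41.5, 125.5, 140.5 or 216 h sample. The difference between paralogs was not tested.

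Mrpl15, a core large-subunit protein with a bacterial counterpart, was the next largest decrease. It was at 48.9 to 64.5 FPKM at 0-9 h in SFEB culture (median 52.4) and at 24.4, 23.0, 33.5 and 21.1 FPKM at 126, 142, 144 and 216 h. The groups did not overlap, and the difference was -1.11 ± 0.14 (limma, adjusted p = 5.31e-07). In adherent culture it went from 63.4, 53.9 and 55.0 FPKM at 0-9 h to 29.5, 30.9, 27.5 and 24.5 at 125-216 h, a difference of -1.01 ± 0.13 (limma, adjusted p = 1.62e-05).

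Mrps12 is the protein of the decoding centre, the place where codon and anticodon are matched. It was at 34.4 to 64.2 FPKM at 0-9 h in SFEB culture (median 45.4) and at 24.4, 22.1, 25.9 and 19.5 FPKM in the 4 late samples. Its difference was -0.98 ± 0.14 in SFEB and -0.84 ± 0.17 in adherent culture (limma, adjusted p = 3.29e-06 and 0.00073). In adherent culture the level had already dropped at 53.5 h, to 29.5 FPKM from 62.6, 51.2 and 59.1 at 0-9 h.

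Mrpl17, at the end of the exit tunnel side of the large subunit, and Mrps24, a small-subunit protein of the mRNA entry region, complete the 5 largest decreases in SFEB culture. Mrpl17 was at 17.97 to 34.8 FPKM at 0-9 h and 9.36 to 13.7 at 125-216 h, a difference of -1.02 ± 0.15. Mrps24 went from 46.6 to 85.1 FPKM to 27.9 to 32.8 FPKM, a difference of -0.93 ± 0.15. In adherent culture these differences were -0.72 ± 0.15 and -0.76 ± 0.18, both past the test. Mrpl4 (-0.87 ± 0.14) and Mrpl42 (-0.83 ± 0.25) were among the 5 largest decreases in adherent culture, and the call of Mrpl42 was lost without the 8.5 h sample (adjusted p = 0.051, limma).

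The genes that rose late were few. Mrps21, a small-subunit protein with a bacterial counterpart, was at 41.4 to 80.4 FPKM at 0-9 h in SFEB culture, with 80.4 in the 2 h library and 51.0 or less in the other samples, and at 108.8, 95.9, 85.9 and 90.3 FPKM at 126, 142, 144 and 216 h. The late samples lay above all early ones, and the difference was 0.86 ± 0.14 (limma, adjusted p = 2.18e-05). In adherent culture Mrps21 was at 83.2, 98.7 and 107.6 FPKM at 0-9 h and at 109.2, 106.4, 107.8 and 125.8 at 125-216 h. These groups overlapped, and the difference of 0.22 ± 0.16 did not pass the test (adjusted p = 0.26), although the increase from 20-60 h did (0.46 ± 0.15, adjusted p = 0.018, limma). That call was lost without the 53.5 h or the 216 h sample (adjusted p = 0.057 and 0.054).

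Mrps33, a mitochondria-specific small-subunit protein, was the gene that rose in both cultures. It was at 27.4 to 40.3 FPKM at 0-9 h in SFEB culture and at 60.8, 58.8, 41.3 and 38.1 FPKM in the late samples, of which the 126 h and 142 h samples of the first series were the high ones. Within the first series the difference was 0.81 and within the parallel series 0.11, and the difference over both was 0.48 ± 0.13 (limma, adjusted p = 0.0025). In adherent culture it went from 30.2, 32.3 and 28.7 FPKM to 38.3, 39.4, 46.1 and 43.9, groups that did not overlap, with a difference of 0.45 ± 0.17 (adjusted p = 0.032, limma). The adherent call was lost without the 0 h, 8.5 h, 144 h or 216 h sample (adjusted p = 0.073, 0.096, 0.071 and 0.065). Mrpl50 was the other gene called higher in SFEB culture (0.25 ± 0.10, adjusted p = 0.038), a call lost with a linear trend on time and without the 126 h, the 142 h or any of 4 early samples (0, 1 and 8 h of the first and 0 h of the parallel series).

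Mrpl41 rose in SFEB culture from 5.25 to 8.33 FPKM at 0-9 h to 10.1, 12, 9.99 and 12.1 FPKM in the late samples, by 0.70 ± 0.11 (limma, adjusted p = 1.48e-05). In adherent culture it was at 11.6, 9.34 and 8.69 FPKM early and at 10.3, 9.30, 9.34 and 12.5 late, a difference of 0.07 ± 0.16 (adjusted p = 0.75). Mrpl23, a protein at the tunnel exit, was at 56.2 to 102.6 FPKM early and at 94.4, 89.3, 90.6 and 54.5 FPKM late in SFEB culture, where the 216 h sample was the low one. It rose in adherent culture by 0.52 ± 0.20 (adjusted p = 0.037, limma), from 76.8, 69.9 and 73.0 FPKM to 80.0, 97.2, 159.5 and 99.6. The call was lost without the 0 h, 2.5 h, 8.5 h or 144 h sample (adjusted p = 0.061, 0.099, 0.081 and 0.10) and with a linear trend on time (0.058). Without the 8.5 h or the 144 h sample 0 of the 76 genes were called higher in that comparison.

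**Figure D3:**
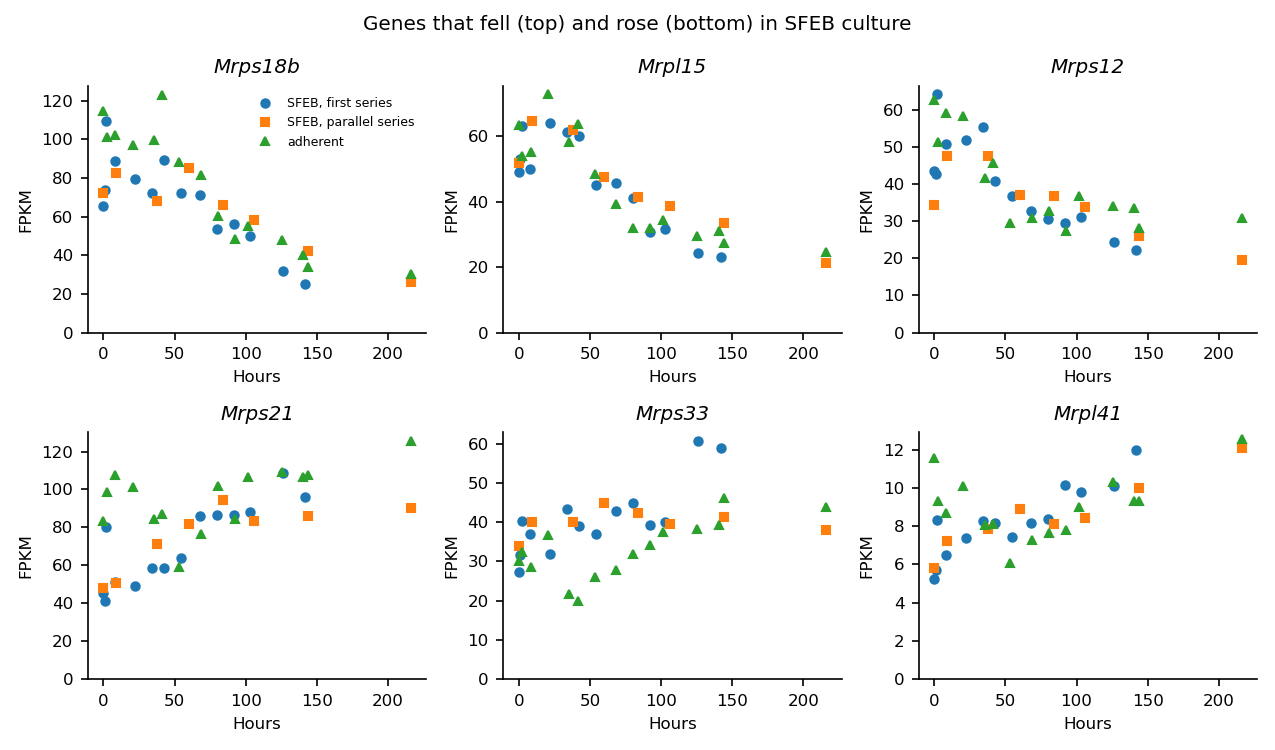
Level in FPKM of Mrps18b, Mrpl15 and Mrps12 (top) and of Mrps21, Mrps33 and Mrpl41 (bottom) in each population sample against hours of differentiation; circles and squares are the first and parallel SFEB series and triangles are adherent culture. Mrps18b drops to between 25.1 and 42.3 FPKM in the late SFEB samples, and Mrps33 is high at 126 and 142 h of the first series.

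Other genes chosen by their role gave a mixed picture. In the stalk, Mrpl10 and Mrpl12 fell in SFEB culture by 0.69 ± 0.10 and 0.42 ± 0.16 on the log2 scale (adjusted p = 6.05e-06 and 0.022, limma), while Mrpl11 had a difference of 0.08 ± 0.13 (adjusted p = 0.60). The Mrpl12 call was lost without the 142 h or the 216 h sample (adjusted p = 0.074 and 0.065) and with a linear trend on time (0.068). In adherent culture Mrpl12 fell by 0.41 ± 0.15, a call that was lost with quantile normalization (adjusted p = 0.11) and without the 0, 2.5, 8.5, 144 or 216 h sample (0.065 to 0.087). Mrpl10 had -0.17 ± 0.12 and Mrpl11 0.19 ± 0.15, neither past the test (adjusted p = 0.27 and 0.29).

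Mrpl2 and Mrpl18, both core proteins of the large subunit, fell in both cultures. The SFEB differences were -0.65 ± 0.13 and -0.47 ± 0.12 and the adherent ones -0.68 ± 0.14 and -0.62 ± 0.10. Mrpl45, which anchors the ribosome to the inner membrane at the tunnel exit, fell by 0.67 ± 0.12 in SFEB and by 0.71 ± 0.12 in adherent culture. Mrpl3 did not pass the test in either culture (0.20 ± 0.12 and 0.13 ± 0.13, adjusted p = 0.13 and 0.43).

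In the small subunit, Mrps5 (-0.39 ± 0.10 and -0.66 ± 0.14) and Mrps34 (-0.46 ± 0.13 and -0.66 ± 0.15) fell in SFEB and in adherent culture. Mrps22 had a difference of 0.01 ± 0.09 in SFEB culture (adjusted p = 0.95) and fell by 0.36 ± 0.11 in adherent culture. Mrpl44 and Mrps30 passed the test in SFEB culture, with -0.32 ± 0.11 and -0.66 ± 0.12, and did not in adherent culture (-0.15 ± 0.10 and -0.11 ± 0.11, adjusted p = 0.22 and 0.41). Differences between the cultures were not tested.

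Mrps36, the gene whose product is not a ribosomal protein, had its own course. In SFEB culture it was at 17.02 to 27.0 FPKM at 0-9 h (median 23.2), 23.6 to 32.6 at 20-60 h (median 29.6), 32.9 to 40.3 at 68-106 h (median 36.2) and 29.7, 29.5, 23.1 and 24.9 FPKM at the end. It rose from 0-9 h to 20-60 h by 0.35 ± 0.10 (limma, adjusted p = 0.011), and the difference between 125-216 h and 0-9 h did not pass the test (0.24 ± 0.11, adjusted p = 0.072). Of the early increases, the largest in SFEB culture was that of Mrpl20, a large-subunit protein, from 44.9 to 102.0 FPKM (median 73.9) to 96.8 to 127.8 FPKM (median 110.6), by 0.61 ± 0.16 (adjusted p = 0.0044, limma). The first 0 h sample was the lowest, and without it 8 rather than 13 genes rose in that comparison.

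The differences of the 76 genes in both cultures were then set beside each other. Of the 40 lower in SFEB and the 39 lower in adherent culture 31 were the same genes, or 77.5% and 79.5% of each list. Over the 12706 genes tested in both cultures these shares were 65.6% and 81.9%. The 31 are 40.8% of the 76 genes, beside 19% of all genes that were lower in both. They comprise 13 and 8 large-subunit genes with and without a bacterial counterpart and 6 and 4 small-subunit genes, with Mrps18b among the 6. No gene was lower in one culture and higher in the other. The differences had a Pearson r of 0.785 across the 76 genes, which are not independent replicates, and 66 of 76 (86.8%) had the same sign in both. Over all genes r was higher, at 0.902, and 84.4% had the same sign.

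**Figure D4:**
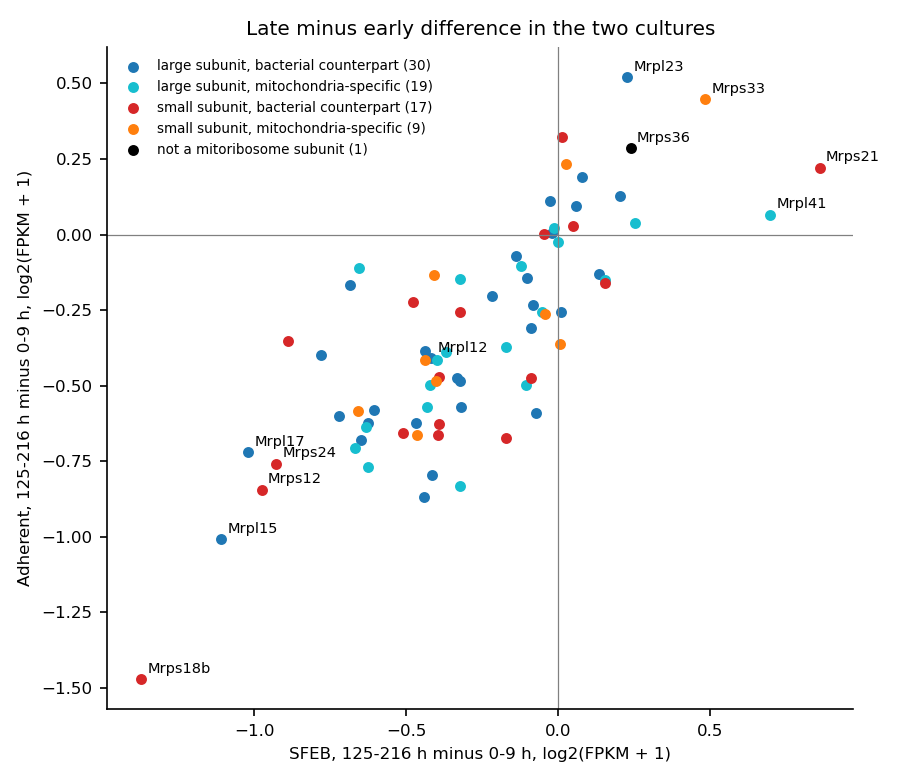
Difference between 125-216 h and 0-9 h in log2(FPKM + 1) for each of the 76 genes, SFEB culture on the horizontal and adherent culture on the vertical axis, coloured by subunit and origin. 54 genes are below 0 on both axes, Mrps18b is the lowest point at -1.37 and -1.47, and no class is set apart from the others.

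Most of the genes also followed each other from sample to sample. Over the 15 adherent samples the log2 level of a gene correlated with the median of the other 75 with a median r of 0.784, and 34 genes (44.7%) exceeded 0.8, beside 10.4% of 12803 other genes correlated with the median of the 76. The highest were Mrpl37 (0.978), Mrps5 (0.968) and Mrpl40 (0.963) and the lowest Mrps33 (-0.604), Mrps21 (-0.304) and Mrpl50 (-0.296). Over the 22 SFEB samples the median r was 0.677, with 18.4% above 0.8 and 1.83% of other genes, and Mrpl41 (-0.263) and Mrps21 (-0.184) were lowest. These samples share time and library, so the values are descriptive.

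Other genes of mitochondrial translation are given for comparison, beside 29.5% lower and 37% higher over all genes in SFEB culture and 23.2% and 34.5% in adherent culture. Of 7 further mitoribosome subunits with other symbols, 5 fell and 2 rose between 0-9 h and 125-216 h in SFEB culture, and 4 fell in adherent culture. Gadd45gip1, a large-subunit protein, fell by 1.00 ± 0.14 and 1.13 ± 0.16, and Chchd1, of the small subunit, rose in SFEB culture by 0.57 ± 0.15. Of 9 translation factors 6 fell in SFEB and 3 in adherent culture, among them the elongation factors Tufm (-0.65 ± 0.11 and -1.01 ± 0.14) and Gfm1 (-0.78 ± 0.11 and -0.62 ± 0.11). Of 16 assembly factors 7 fell in each culture. Of 3 transcription genes, Polrmt, the mitochondrial RNA polymerase, fell by 0.76 ± 0.14 and 0.91 ± 0.13, whereas Tfam, which packages mitochondrial DNA, had -0.10 ± 0.13 and 0.04 ± 0.17 (adjusted p = 0.51 and 0.86, limma). Of 17 mitochondrial aminoacyl-tRNA synthetases 5 fell and 1 rose in SFEB, and 6 fell and 3 rose in adherent culture.

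By genome position in NCBIM37 (mm9) with GENCODE M1, the 76 genes lie on 17 chromosomes, with 10 on chromosome 11 as the highest number. A protein-coding gene starts on the opposite strand within 1000 bases before, or 500 bases after, the start of 25 of them. One pair consists of members: Mrpl46 and Mrps11 on chromosome 7. Other partners are Sars2, the mitochondrial seryl-tRNA synthetase, at 171 bases from Mrps12, and Ppp1r10 at 45 bases from Mrps18b. For 26 genes at least 1 exon base is shared with another gene, and for 9 at least 20% of exon bases are, among them Mrps18b (30.5% with the lincRNA Gm16279), Mrps34 and Mrps25; the libraries do not keep the strand. Copies of at least 95% identity over at least 50% of the transcript were found elsewhere in the genome for 17 genes, among them Mrps18b, Mrps21, Mrps33, Mrpl12, Mrpl23, Mrpl41 and Mrps36, so reads of these genes and of their copies may have been split.

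Promoters were examined because many of the genes moved together. RefSeq promoters (GRCm38.p6, 250 bases before to 50 after a start) were matched for 67 of the 76 genes. They were searched on both strands for CCGGAAG (a core that ETS factors bind), a relaxed NRF1 site with 1 free position, a YY1 site, CACGTG (the E-box) and CCAAT. The ETS core was in 24 of 67 (35.8%), beside 19.0% of 9529 genes of the SFEB table and 9.93% of all 27025 genes with a promoter. The relaxed NRF1 site was in 12 (17.9%, beside 11.2% and 5.19%) and the YY1 site in 5 (7.46%, beside 2.27% and 0.995%). The strict NRF1 site, each match of which is also a match of the relaxed one, was in 3 (4.48%, beside 2.30% and 1.07%). The E-box was in 5 (7.46%, beside 11.9% and 8.09%) and CCAAT in 27 (40.3%, beside 43.8% and 41.1%). Cytosolic ribosomal protein genes had the ETS core in 39.6% of 53 promoters and oxidative phosphorylation genes in 24.2% of 66. Of the 28 promoters of genes lower in both cultures 11 held the ETS core (39.3%), and of the 39 others 13 did (33.3%). CCAAT was in 7 of the 28 (25%) and in 20 of the 39 (51.3%). A match is a description of letters and not a binding site.

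The promoters of 2 genes that fell and 2 that rose in SFEB culture are shown, picked because all 4 hold the ETS core. Mrpl41 and Mrpl50, also called higher in SFEB culture, lack it. Matches to CCAAT are not marked, and Mrps12 has 4 of them. The promoters shown carry capitals at the ETS core and, in Mrps21, also at the relaxed NRF1 site. They lie at chr17:35916391-35916690 (Mrps18b), chr7:28741772-28742071 (Mrps12), chr3:95871465-95871764 (Mrps21) and chr6:39810887-39811186 (Mrps33) of GRCm38.p6, all on the minus strand and written 5′ to 3′.
Mrps18b: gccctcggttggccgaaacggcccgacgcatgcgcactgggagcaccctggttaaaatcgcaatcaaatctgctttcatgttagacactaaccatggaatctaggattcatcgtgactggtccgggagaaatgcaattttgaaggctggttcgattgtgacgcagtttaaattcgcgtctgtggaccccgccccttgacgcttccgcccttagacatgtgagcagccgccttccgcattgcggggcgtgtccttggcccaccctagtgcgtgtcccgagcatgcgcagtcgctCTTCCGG
Mrps12: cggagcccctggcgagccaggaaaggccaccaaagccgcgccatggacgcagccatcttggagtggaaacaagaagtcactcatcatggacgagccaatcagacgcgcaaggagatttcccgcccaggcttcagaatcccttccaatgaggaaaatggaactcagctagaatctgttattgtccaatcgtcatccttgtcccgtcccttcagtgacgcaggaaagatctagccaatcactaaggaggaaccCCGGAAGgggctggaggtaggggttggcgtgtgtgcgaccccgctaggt
Mrps21: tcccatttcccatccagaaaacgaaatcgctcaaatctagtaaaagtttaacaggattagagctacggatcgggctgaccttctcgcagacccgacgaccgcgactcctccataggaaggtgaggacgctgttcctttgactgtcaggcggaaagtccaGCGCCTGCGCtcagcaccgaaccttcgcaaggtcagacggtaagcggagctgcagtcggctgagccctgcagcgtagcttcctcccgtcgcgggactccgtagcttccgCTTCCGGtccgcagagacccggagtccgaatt
Mrps33: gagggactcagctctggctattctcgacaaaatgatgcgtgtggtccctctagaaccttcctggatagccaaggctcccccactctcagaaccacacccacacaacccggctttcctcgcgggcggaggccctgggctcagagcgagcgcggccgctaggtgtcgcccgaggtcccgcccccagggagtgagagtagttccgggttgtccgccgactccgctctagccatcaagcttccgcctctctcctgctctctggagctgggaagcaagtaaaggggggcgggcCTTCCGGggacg

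In single cells of SFEB culture the 76 genes were widely detected. Of the 76, 19 had a value above 0 in all 64 cells, and the least often detected, Mrps18c, had one in 39 cells; the median was 62 cells, against 50 over all genes in the table. The median cell of a time point had 66.5 to 75 of the 76 genes above 0, and the lowest single cell, at 144 h, had 41. Mrpl12 had the highest mean level, 2.22 on the deposited log10(RPKM + 1) scale, followed by Mrpl28 (2.19) and Mrps7 (2.02), and Mrpl1 the lowest (0.30). The mean over cells and the level in the SFEB populations had a Pearson r of 0.453 and a Spearman rho of 0.431 across the 76 genes. Mrps21 was at 81.2 FPKM in the populations but had a mean of only 0.40 in cells, with 45 cells above 0.

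The mean over the 76 genes overlapped between cells of all times. It was 1.12 ± 0.12 (SD, n = 8 cells) at 0 h, 1.21 ± 0.09 at 9 h, 1.21 ± 0.08 at 38 h, 1.10 ± 0.07 at 60 h, 1.14 ± 0.11 at 84 h, 1.25 ± 0.11 at 106 h, 1.09 ± 0.16 at 144 h and 1.06 ± 0.12 at 216 h. The number of genes of the whole table above 0 had medians between 6145 (144 h) and 8972 (0 h) and was lowest at the time with fewest of the 76 genes detected; its part in these values was not tested. The cells of a time were averaged, since they are not replicates, and 144 and 216 h were compared with 0 and 9 h over the 8 time points by limma. It called 0 of the 76 genes in either direction, beside 0.358% higher and 0.367% lower over all genes at the same adjusted threshold. At an unadjusted p under 0.05 there were 4 of the 76, and no share of all genes at that threshold is given. With genes above 0 in at least 32 cells 1 gene was called lower.

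The median difference of the 76 genes in cells was -0.11 on the log10 scale, and that of oxidative phosphorylation subunits was 0.11. Mrps18b had the smallest p, with means of 1.88, 1.73, 1.62, 2.36, 1.74 and 1.70 at 0, 9, 38, 60, 84 and 106 h and 0.86 and 0.70 at 144 and 216 h. Both late means lay below all earlier ones, and the difference was -1.03 ± 0.27 (limma, adjusted p = 0.081). The 216 h mean includes the cell 216h16, which the paper describes as an outlier that had not left the starting stage.

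**Figure D5:**
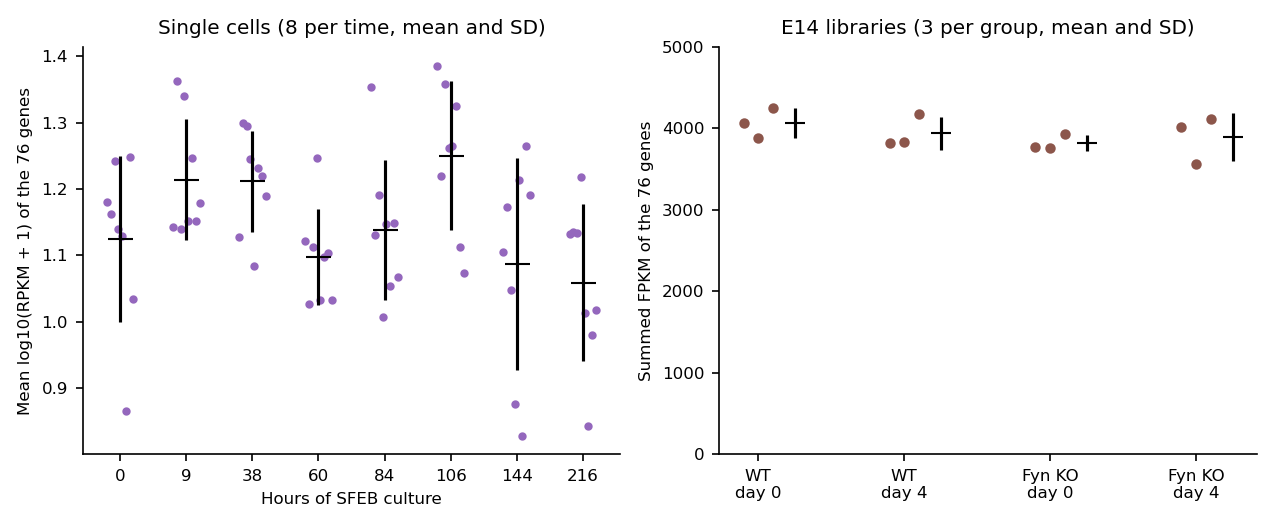
Left, mean log10(RPKM + 1) of the 76 genes in each SFEB single cell by hours of culture, with the mean and SD of 8 cells in black and an axis that does not start at 0; right, summed FPKM of the 76 genes in each E14 library, with the mean and SD of 3 libraries in black. The 8 means lie between 1.06 and 1.25, with SDs of 0.07 to 0.16, and all 12 E14 libraries lie between 3560 and 4247 FPKM.

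E14 cells were compared at day 4, which is earlier than the late windows above. The day 4 libraries differed in their markers. The summed naive pluripotency markers were at 157.4, 553.6 and 291.5 FPKM in WT replicates 1 to 3 and at 196.7, 460.4 and 270.8 in KO, below the 1021 to 1588 FPKM of day 0. Sox1, an early neural transcription factor, was at 47.2, 7.81 and 11.6 FPKM in WT and 0.990, 1.27 and 7.08 in KO at day 4. The part of these differences between libraries in the values below was not tested. The sum of the 76 genes was 4067 ± 180 FPKM (SD, n = 3) in WT at day 0, 3940 ± 204 in WT at day 4, 3821 ± 97.2 in Fyn KO at day 0 and 3897 ± 296 in Fyn KO at day 4. In 3 of the day 4 libraries, WT replicates 1 and 2 and KO replicate 2, a single small RNA gene, Snord22, was listed at 158600 FPKM or more, and at 0 in the other 9 libraries, and these 3 gave the 76 genes the lowest shares of the table's total (0.420, 0.557 and 0.463%).

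Between day 4 and day 0 in WT, limma called 2 of the 76 genes higher and 6 lower (2.63% and 7.89%), beside 15.5% higher and 10.3% lower over all 12257 genes tested. Mrps18b fell from 91.2, 80.1 and 94.7 FPKM to 59.6, 54.1 and 61.2, groups that did not overlap, by 0.59 ± 0.13 on the log2 scale (adjusted p = 0.0075, limma). Mrpl17 fell from 14.2, 14.7 and 17.2 FPKM to 9.24, 8.74 and 11.5, by 0.60 ± 0.16 (adjusted p = 0.017). Mrps16 (-0.61 ± 0.17), Mrpl40 (-0.54 ± 0.18), Mrps2 (-0.53 ± 0.11) and Mrpl43 (-0.45 ± 0.13, named to complete the count and without alternative settings) also fell, and Mrpl48 (0.44 ± 0.11) and Mrps17 (0.36 ± 0.12) rose. The numbers of the WT libraries pair them, and with the replicate block 4 genes were higher and 7 lower. With quantile normalization 5 were higher and 4 lower, and without WT day 4 replicate 2 the number lower was 2 (3 without WT day 4 replicate 1 or WT day 0 replicate 2). The number higher was 0 without WT day 0 replicate 2, and 1 without WT day 0 replicate 3, WT day 4 replicate 3 or any KO library other than KO day 0 replicate 3. The calls of Mrps18b and Mrps2 held without each library, and those of Mrpl17, Mrps16, Mrpl40, Mrpl48 and Mrps17 were each lost without at least 1. Mrpl15 (0.02 ± 0.20) and Mrps12 (-0.25 ± 0.26), which were among the largest decreases of the R1 cells, did not pass the test (adjusted p = 0.97 and 0.51).

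In Fyn KO cells 0 genes rose and 4 fell between day 0 and day 4 (0% and 5.26%), beside 11.8% higher and 7.56% lower over all genes. These were Mrpl43 (-0.46 ± 0.13, adjusted p = 0.027), Mrps18b (-0.43 ± 0.13, adjusted p = 0.038), Mrpl37 (-0.43 ± 0.13, adjusted p = 0.041) and Mrps2 (-0.39 ± 0.11, adjusted p = 0.026; all by limma). Mrps18b was at 85.1, 94.8 and 97.3 FPKM at day 0 and at 79.5, 68.0 and 58.5 FPKM at day 4, with no overlap. With quantile normalization 4 genes were higher and 1 lower. Without KO day 0 replicate 3 as many as 6 were higher, and without KO day 0 replicate 1, KO day 0 replicate 2 or KO day 4 replicate 3 0 were lower (1 without KO day 4 replicate 2); each of the 4 calls was lost without at least 1 library.

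Between Fyn KO and WT, limma called 0 of the 76 genes at day 0 and 0 at day 4 at the adjusted threshold. Over all genes that threshold called 0.0408% higher and 0.131% lower at day 0, and 0.00816% and 0.0653% at day 4. At an unadjusted p under 0.05 there were 10 of the 76 at day 0 and 8 at day 4. The 10 were lower in KO, and the 8 went both ways. No share of all genes at that unadjusted threshold is given, so these counts have no background. The smallest p at day 0 was that of Mrpl45 (-0.65 ± 0.14, adjusted p = 0.093), and at day 4 that of Mrpl10 (-0.41 ± 0.14, adjusted p = 0.27). For the difference of the change from day 0 to day 4 between KO and WT, 0 of the 76 genes passed the adjusted threshold. Of all genes 0 passed it as well (0% in either direction). At an unadjusted p under 0.05 there was 1 of the 76, again without a share of all genes. The median of that difference over the 76 genes was 0.04.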

How the data were processed

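RNA-seq was measured in 22 SFEB populations, 15 adherent populations, 64 single SFEB cells and 12 E14 libraries. The authors deposited FPKM values for the adherent and E14 samples. For the SFEB populations the authors deposited other values, FPKM after batch correction by ComBat, of which 1256 (0.422%) were below 0 and were set to 0. For the cells the authors deposited quantile-normalized log10(RPKM + 1). The submitters' notes list TopHat2 2.0.8b, Cufflinks 2.1.1, mm9 and mm10 without saying which step used which build. Nextera XT libraries do not mark strand. ComBat and quantile normalization change the spread between samples, and a count test could not be run because no read counts were used here.

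Values were tested as log2(FPKM + 1) with limma 3.58.1 in R 4.3.3 (trended empirical Bayes, genes at 1 FPKM or more in 3 or more samples, Benjamini-Hochberg threshold 0.05 over all genes tested). The SFEB fit held the windows and the series as a term, the E14 fit its 4 groups, and the cell fit the mean log10 values of 8 time points. The fit was tested on simulated data. Copies were sought with minimap2 2.31-r1302. The 76 genes and the comparison lists were chosen with earlier results of these data known. Genes named singly were, in each comparison, up to 5 with the largest change in each direction past the threshold, a list fixed by role, those highest and lowest in level, and those most and least like the others over the adherent samples. Alternatives were another pseudocount, no filter, quantile normalization, no series term, a linear trend on time, a replicate block and leaving out each sample. For the cells they were the log10 of the mean RPKM + 1 and the number of genes detected as a covariate. Further ones for the cells were genes above 0 in at least 32 cells, leaving out the cell 216h16 and leaving out each time. The replicate numbers of E14 paired WT day 0 with WT day 4 (correlations of deviations 0.199, 0.220 and 0.224) and WT with KO at day 4 (0.136, 0.258 and 0.240), but not KO day 0 with KO day 4 (0.0239, 0.0899 and 0.00112) nor WT with KO at day 0 (0.0628, 0.339 and -0.115). Promoter sequences came from RefSeq GRCm38.p6 and gene positions from NCBIM37 with GENCODE M1.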

Additional observations from a re-analysis of the deposited data

Results flagged for a closer look

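Groups of 4 to 10 samples were searched for 1 sample far from the rest, in 100 groups, of which chance alone would give about 1 in 20; 7 were found. In SFEB culture at 0-9 h the 2 h library of the first series was far above the others for Mrpl12 (211.6 FPKM, the next sample at 127.1), Mrps21 (80.42 FPKM, next 51.0) and Mrpl23 (102.6 FPKM, next 70.1), and the same library had the highest sum of the 76 genes. At 20-60 h the 54.5 h sample had the lowest sum, 3418 FPKM, with the next at 3754. At 125-216 h Mrpl23 was low in the 216 h SFEB sample (54.51 FPKM, next 89.3). In adherent culture Mrps21 was high at 216 h (125.8 FPKM, next 109.2). Among the single cells of 60 h, 1 cell had a mean over the 76 genes of 1.247 on the log10(RPKM + 1) scale, with the next at 1.121. The causes were not tested.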

How the results depend on the processing

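Alternatives for single genes were run only where limma had called the gene. Of 1990 alternatives computed for 87 such results 1851 kept the direction and the side of the threshold and 139 kept the direction but lost the call. With quantile normalization the 76 genes called lower numbered 3 in SFEB culture from 0-9 h to 20-60 h, those called higher numbered 5 in adherent culture from 0-9 h to 125-216 h, 5 in WT and 4 in KO between day 0 and day 4, and 1 was lower in KO. The same scaling turned the sign of the median of the 76 genes relative to all genes in SFEB culture from 0-9 h to 20-60 h (0.06 to -0.05) and in KO (-0.07 to 0.03). Without the series term, and without the 2 h and the parallel 0 h samples (chosen after seeing the data), 0 were lower from 0-9 h to 20-60 h in SFEB culture. A linear trend on time left 1 higher in adherent culture, and no filter gave 1 higher in KO. In cells, keeping genes above 0 in at least 32 cells gave 1 lower. The replicate block gave 4 higher in WT and 2 in KO, where the numbers do not pair the libraries, and it changed no other count of calls by over 1.5 times. The causes were not tested.

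Leaving out 1 sample at a time, the SFEB counts from 0-9 h to 20-60 h were 8 to 18 higher and 0 to 2 lower, from 20-60 h to 125-216 h 3 to 4 higher and 39 to 49 lower, and from 0-9 h to 125-216 h 3 to 6 higher and 33 to 43 lower. In adherent culture they were 0 to 0 higher and 0 to 3 lower, 1 to 7 higher (7 without 20.5 h, 1 without 53.5 h) and 31 to 42 lower, and 0 to 3 higher and 30 to 40 lower. In E14 cells they were 0 to 3 higher and 2 to 7 lower in WT, 0 to 6 higher and 0 to 5 lower in KO, and 0 to 1 lower for KO against WT at day 0 (1 without WT day 0 replicate 1). Depth per sample is not known from the tables, the samples of a window differ in time, and genes with near-identical copies or shared exons carry reads that cannot be assigned with certainty.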
